A study of Vitis vinifera with 3 samples.

Results

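The probes described here are the 16177 oligonucleotides of the GrapeArray 1.2 whose names consist of a tentative consensus (TC) number, a position and the suffix S, as in TC52752_736_S. They were taken from the probe names alone, without regard to signal, and make up 16177 of the 24562 probes of the array and of the 19107 probes designed on TC sequences, of which the other 2930 carry the suffix X. Berries of Vitis vinifera cv Corvina (clone 48) from 6 time points between véraison and withering, sampled in an experimental vineyard of the Verona Province, were combined into 1 pool of total RNA. This pool was amplified, labeled with Cy5 and hybridized 1 time to this array. There is therefore no control group and no contrast between time points. No replicate of the array was made, so that the values below are a description of 1 hybridization, without a test and without a standard deviation between replicates.

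A TC sequence is a consensus assembled from overlapping expressed sequence tags (ESTs), which are single reads from the ends of cDNA clones. A transcript has to be sampled repeatedly to be assembled in this way, so that a TC stands for a message already seen more than once in earlier cDNA libraries of the species. Véraison is the onset of ripening, when berries soften, accumulate sugars and, in red cultivars, color, and withering is the slow drying of harvested clusters that is traditional for Corvina. The signal of a probe covers the mixture of these stages and does not tell at which stage its target was present. It also depends on how well each oligonucleotide binds and how well its target is labeled, so that intensities of different probes are compared here as signals and not as amounts of transcript.

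The TC numbers are identifiers of the Vitis vinifera Gene Index, whose sequences and annotation were not used here. As identifiers, none of the 16177 TC numbers (0 matched) occurred among the 29591 genes of the RefSeq table for the Pinot Noir assembly. No sequences were compared, so that this does not tell whether the transcripts themselves are in that table. The probes are therefore given by name and without a function. What the suffix letters stand for is not explained in the labels or the methods, nor is the end of the consensus from which the position is counted. The length of the consensus is also not part of the name. As a high position can occur only on a long consensus, position and length cannot be told apart. Each of the 16177 TC numbers had 1 S probe and no number was shared with an X probe (0 shared). The numbers ran from 51690 to 71215, a range of 19526 numbers, of which 419 had no TC probe of either kind.

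The deposited values are signal intensities on a linear scale, quantile normalized by the authors, with a lower limit of 150 and with an upper limit that is the highest value of the scanner scale. The S probes had a median intensity of 410.25, with quartiles of 181.25 and 949. Their 90th percentile was 2132 and their 99th percentile 11645. At the lower limit were 3239 probes (20.0%, 95% Wilson interval 19.4 to 20.7%), which have no order among themselves. Over all probes of the array the share was 21.1%, but the S probes are most of these probes. The share was 9.18% among the X probes, 26.5% among probes on single ESTs and 32.8% among all probes on predicted gene models. These shares may not be like for like, as the averaging of spots is not described. Values of S probes such as 150.25 have finer fractions than medians of the X probes by TC number decile, such as 722.5 and 904.5. Whether more spots were averaged for the S probes, which would change their share at either limit, was not tested. Intervals in this text cover the number of probes counted, and not the error of the hybridization. Above the limit, 3226 probes (19.9%) reached up to 300, 3649 (22.6%) lay above 300 and up to 600, 2874 (17.8%) above 600 and up to 1200, and 1802 (11.1%) above 1200 and up to 2400. The largest 2-fold class was thus the one that holds the median, and the classes above it became steadily smaller.

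The next value above the limit was 150.25, at 5 probes, namely TC58616_632_S, TC59632_725_S, TC62910_381_S, TC65286_823_S and TC70503_761_S. In all, 415 probes lay above 150 and within 10% of it. Negative controls, which are probes without a target in the plant, were at 150 in 35 of 46 cases, and the mean of these 46 plus 2 standard deviations gave a threshold of 345. Of the S probes, 9008 (55.7%) exceeded it, against 54.4% of all probes of the array, most of which are the S probes themselves. This threshold depended on the control Negative3_776_S, and without it was 287, with 61.4% of the S probes above.

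The error of a single value could be judged only on the other array of the series, which carries different probes and was hybridized 2 times with the same pool. There the standard deviation of the log2 difference from one hybridization to the other was 0.52 over the 5285 probes with a mean intensity from 150 to 300. It was 0.44 over the 7115 probes from 300 to 600, 0.38 over the 7777 from 600 to 1200 and 0.31 over the 17911 from 1200 upward. If the error here was alike, the value of a single S probe could move by such amounts, and also by more, on another hybridization. The spread compares the same probe between hybridizations, so that no limit for telling 2 different probes of 1 array apart follows from it. How far the median of a large group of probes would move between hybridizations of the GrapeArray 1.2 was not measured.

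The signal was higher at high positions, but did not increase evenly. The probes were divided into 5 groups of nearly equal size by position (quintiles), from 2 to 374, 375 to 545, 546 to 668, 669 to 913 and 914 to 7185. The median intensity was 380.25 in the lowest quintile (3239 probes), 357 in the second (3252 probes), 356 in the third (3223 probes), 482 in the fourth (3233 probes) and 509.9 in the highest (3230 probes). The 3 lower quintiles thus formed one level and the 2 upper quintiles another. Between the highest and the lowest quintile the medians differed by 0.42 on the log2 scale (interval from the ranks of the probes 0.32 to 0.54).

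The share at the lower limit followed the same division. It was 22.1% in the lowest quintile (interval 20.7 to 23.5%), 23.4% in the second (22.0 to 24.9%) and 23.1% in the third (21.7 to 24.6%). In the fourth quintile it was 15.8% (14.6 to 17.1%) and in the highest 15.6% (14.4 to 16.9%). The intervals of the lower 3 quintiles overlapped with each other and not with those of the upper 2. From the lowest to the highest quintile the share at the limit decreased by 6.47 percentage points. The probes above the threshold of 345 made up 52.5%, 51.2%, 51.4%, 61.1% and 62.3% of the quintiles, respectively.

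Smaller steps of position placed the change between 500 and 800. The dimmest step was also the fullest, with a median of 339 and 24.6% at the limit over the 2763 probes at positions above 500 and up to 600. From there the median was 398.5 up to 700 (2158 probes), 457 up to 800 (1454 probes) and 508.5 up to 900 (1094 probes), while the share at the limit went to 19.8%, 15.8% and 16.2%. Below 500 the steps showed no regular course. The 443 probes at positions up to 50 had a median of 383 with 19.6% at the limit, and the 679 probes above 100 and up to 200 had 344 with 23.6%. Far along the consensus the signal was higher again, with a median of 717 over the 341 probes above 1500 and up to 2000, of which 13.2% were at the limit, and of 603 over the 96 probes beyond 2000, of which 10.4% were at the limit.

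Across the 16177 probes the Spearman correlation of position and intensity was 0.098, a weak relation that describes probes of 1 array and not independent samples. It rested on the upper positions, as within the 3 lower quintiles alone, a range chosen after the values were seen, the correlation was -0.025. Position itself was lower at higher TC numbers (Spearman correlation -0.19), and the relation with intensity was nearly the same when this was held fixed. Computed within each decile of TC number, with position quintiles formed anew in each, and averaged, the correlation of position and intensity was 0.096 and the difference in the share at the limit was -6.67 percentage points.

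Single probes at the ends of the position range showed how little the position says about one target. At position 2 there were 10 probes, with intensities between 150 and 4331.5, a median of 419.9 and 3 of them at the limit. The brightest of these was TC51852_2_S with 4331.5, whereas TC55377_2_S was at 150. The highest positions, also chosen after their values were seen, were not bright. TC57393_7185_S had an intensity of 798, TC53050_6339_S of 442, TC58194_5551_S of 248.75, TC63596_4840_S of 152.5 and TC69251_4465_S of 153.5. Of these 5 probes, the 3 at the lower positions of the group lay below the median of all S probes.

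The X probes and the probes on predicted gene models did not show this course at the same positions, although no test was made. When the same 4 boundaries were applied, the X probes had medians of 962, 910, 856, 899 and 723 from the lowest to the highest group of positions. The 1904 probes on single ESTs had 288.5, 298, 272.5 and 284 in the 4 lower groups. Only 97 of them lay in the fourth group and 2 in the highest. They hardly reach the positions where the S probes were brighter, and so cannot serve as a contrast. The 3325 probes with suffix S on predicted gene models had 234, 257.5, 211.5, 201 and 242.5. The Spearman correlation of position and intensity was -0.047 for the X probes, -0.012 for the single ESTs and 0.016 for the predicted gene models. A position of the same number need not lie at the same place in a consensus, an EST and a gene model.

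Along the TC number the lowest and the highest decile of the probes stood apart, and those between differed less. In the lowest decile, from TC51690 to TC53697, the median was 573 and 14.6% of the 1618 probes were at the limit. In the second decile, up to TC55625, the median was 364 with 22.0% at the limit. From the third to the ninth decile the medians lay between 400 and 427, and the shares at the limit between 17.7% and 22.1%. In the highest decile, from TC69217 to TC71215, the median was 330.25 and 25.3% were at the limit, which is 10.7 percentage points more than in the lowest decile (interval 7.95 to 13.4). The lowest decile thus had the highest and the highest decile the lowest median of the 10.

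The change at the low end was abrupt on the scale of 400 probes. Successive groups of 400 probes from the first TC number onward had medians of 715, 567, 527 and 546, which brings the series to TC53678, and then of 348, 357, 378 and 370.25. The share at the limit was between 12.0% and 15.75% in the first 4 of these groups and between 19.5% and 23.75% in the following 4. At the high end, the last 4 groups of 400 probes had medians of 331, 329, 380.5 and 294, and the very last, from TC70714 to TC71215, had 29.25% at the limit. TC51690_2281_S and TC71215_641_S, the probes with the lowest and the highest number, had intensities of 239.75 and 150.

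Over all S probes the Spearman correlation of TC number and intensity was -0.055. Without the lowest and the highest decile, a choice made after the values were seen, it was 0.022, and the share at the limit dropped by 2.04 percentage points from the second to the ninth decile. The relation with the TC number thus rested on its 2 ends. The probes with low numbers also had higher positions, with a median position of 749 in the lowest decile against 522.5 in the highest. With TC number deciles formed anew within each quintile of position, the averaged difference in the share at the limit between the ends was 5.93 percentage points. With the deciles of all S probes kept, an alternative chosen after these values were seen, it was 9.74 percentage points.

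The positions behaved differently at the beginning of the numbering than elsewhere. In the lowest decile of TC number the medians of the 5 position quintiles were 690, 576, 405, 549 and 667, so that the probes at the lowest positions were as bright as those at the highest. In the second to ninth deciles they were 381, 356.5, 354.5, 482 and 509. In the highest decile they were 311, 313, 330.5, 370.25 and 352. The lowest quintile within the lowest decile held 230 probes, of which 10.9% were at the limit (interval 7.47 to 15.55%), compared with 26.9% (23.5 to 30.6%) of the 606 probes in the lowest quintile of the highest decile.

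Neighboring TC numbers were hardly alike in signal. Over the 13416 pairs of S probes with consecutive numbers the correlation of log2 intensity was 0.029 (Pearson) or 0.024 (Spearman), and over the 16077 pairs of probes 100 places apart the values were 0.0072 and 0.0084. Of the 13416 consecutive pairs, 47 had both probes among the brightest 5%. The number that unrelated pairs would give was not computed, so that these pairs and the runs below are only listed. There were 2 runs of 3 such probes. The first was TC55025_752_S, TC55026_535_S and TC55027_791_S, with intensities of 5438.5, 4561.75 and 5335.25, all close to each other. The other was TC67990_592_S with 34488.5, TC67991_1085_S with 6105.75 and TC67992_189_S with 5478.5, of which the first was far brighter than its followers.

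A small part of the probes held most of the signal. The brightest 1% (162 probes, from 11748 upward) carried 21.7% of the summed intensity, the brightest 5% (809 probes, from 3662 upward) 43.7% and the brightest 10% (1618 probes, from 2132 upward) 56.3%. Counted from the top, 1161 probes (7.18%) sufficed for 50% of the sum, while the dimmer 50% of the probes together held 10.0%. The 3239 probes at the lower limit accounted for 2.76% of the sum, all of it the limit itself. The entry into the brightest 1% lay 28.6-fold, and that into the brightest 10% 5.20-fold, above the median.

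The brightest probes were spread over all positions. Of the 809 probes in the brightest 5%, 165, 128, 119, 175 and 222 lay in the 5 position quintiles, and of the 162 in the brightest 1%, 30, 24, 31, 36 and 41. Along the TC number the lowest decile held 148 of the 809 and the highest 52. The median position was 567 for the probes at 150, 589 for those above the limit that did not exceed the threshold, 618 for those above the threshold and outside the brightest 10%, and 657 for the brightest 10%. Within the brightest 10% the median position was 663 for the brightest 5%, 659 for the brightest 1% and 539 for the 13 probes at the upper limit.

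At the upper limit were 13 of the 16177 probes (0.0804%), compared with 0.326% of all probes of the array. The share was 2.05% for the X probes (60 probes) and 0.105% for the single ESTs (2 probes). For the probes with suffix S on predicted gene models it was 0.120% (4 probes). As at the lower limit, these shares may not be like for like between the kinds of probe. Since a value at the limit is only a lower bound, these probes cannot be ranked, and each was at least 159.7-fold above the median of 410.25. In the lowest position quintile they were TC59897_19_S, TC61421_249_S, TC62958_57_S, TC69828_184_S and TC70314_84_S. In the second quintile they were TC64045_411_S and TC65074_539_S. The third quintile had none (0 of 3223 probes). The fourth held TC52752_736_S, TC54514_674_S, TC56556_894_S and TC59127_721_S, and the highest TC69306_1284_S and TC70916_1161_S. The lowest quintile thus had the most probes at the upper limit, although its median was among the lower ones. By TC number, 4 of the 13 lay in the highest decile, the dimmest by its median, and none (0) in the eighth and ninth deciles.

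The probes next to these in TC number covered a wide range of signal. For the 13 probes at the upper limit all 26 adjacent TC numbers had a probe, of which 22 had the suffix S. These 22 had intensities between 150 and 5688.75 with a median of 520.75, against 410.25 for all S probes, and 5 of them were at the lower limit. No 2 probes at the upper limit had consecutive numbers. Both neighbors of TC69828_184_S, which are TC69827_10_S and TC69829_275_S, were at 150. The brightest S neighbor was TC62959_809_S with 5688.75, above 97.2% of the S probes, beside TC62958_57_S. The only brighter neighbor was an X probe, TC56555_318_X, with 53267 beside TC56556_894_S.

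Below the upper limit the scale was thinly filled, with 8 S probes above 38400 and 46 between 19200 and 38400. The brightest was TC60294_1489_S with 62714.75, followed by TC66921_628_S with 55464.25, TC61802_934_S with 53497, TC57411_555_S with 53031 and TC68488_693_S with 48695.25. The first of these was 153-fold and the last 119-fold above the median. In the lowest position quintile the brightest probes short of the limit were much lower, namely TC57330_323_S with 34620.75, TC52209_262_S with 28707.5 and TC55152_187_S with 28440. In the second quintile TC63690_419_S had 45785.25, TC59279_521_S 28396.5 and TC63639_432_S 24059. The third quintile, which had no probe at the upper limit, held TC66921_628_S and TC57411_555_S, named above, and TC67990_592_S with 34488.5. In the fourth, TC68488_693_S was followed by TC69792_789_S with 45438 and TC61757_827_S with 42482.5, and in the highest, TC51853_955_S with 36815 came after TC60294_1489_S and TC61802_934_S.

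The S probes were dimmer than the X probes, the other TC probes of the array. The X probes had a median of 895.5 with quartiles of 369 and 2602, and 9.18% of them were at the lower limit. The median of the S probes differed from this by -1.13 on the log2 scale (interval -1.22 to -1.03), and the share at the limit was 10.8 percentage points higher (9.58 to 12.0). No test between the kinds was made, as all values come from 1 hybridization. The shares at the limit may also differ through the averaging of spots, which is not described. The difference was present at all positions but not of one size. In 5 groups of position formed over both kinds, it was -1.31, -1.36, -1.30, -0.99 and -0.48 on the log2 scale from the lowest to the highest.

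The share of S probes among the TC probes was lower in each brighter class of intensity. They made up 84.7% of all TC probes, 92.3% of the 3508 at the lower limit, 87.4% of the 4174 above 300 and up to 600, 70.9% of the 1139 above 2400 and up to 4800, and 43.8% of the 105 above 19200 and up to 38400. At the upper limit they were 13 of 73 (17.8%). The X probes at the upper limit lay at low positions in 28 of 60 cases, within the range of the lowest S quintile, where 901 of the 2930 X probes were found. The brightest 5% of the X probes held 56.0% of their summed intensity and the brightest 10% held 70.1%, compared with 43.7% and 56.3% for the S probes. For the brightest 1% the order was the opposite, with 15.1% for the X probes, all 29 of them at the upper limit, and 21.7% for the S probes. Of the 162 S probes in their brightest 1%, only 13 were at the upper limit. The limit cuts off the values of all 29 X probes, so that the order at 1% cannot be read as a difference in concentration. The probes on single ESTs (median 288.25, 26.5% at the limit) and the S probes on predicted gene models (median 234, 32.3% at the limit) were dimmer than the S probes on TC sequences. Their brightest 1% (19 and 33 probes) held 26.7% and 30.8% of the sum, against 21.7% for the latter. Of these 19 and 33 probes, 2 and 4 lay at the upper limit, and the shares without them were not computed. How far the order at 1% depends on these few probes is therefore not known. The brightest 5% of the single ESTs and of these gene model probes held 43.55% and 46.8%.

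The S probes with an X probe on an adjacent TC number had nearly the same intensities as the others. The 4475 probes with such a neighbor had a median of 423.5, with 19.8% at the limit, and the 11702 without had 405 and 20.1%.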

How the data were processed

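One RNA pool was hybridized 1 time to the CombiMatrix GrapeArray 1.2. The labels give no array type, which was taken from the probe names. The deposited intensities, 1 linear value per probe, were extracted by the authors with Microarray Imager from GenePix scans and quantile normalized with Blist. The reference distribution, the background correction and the averaging of spots are not described in the labels or the methods. The number of arrays limits the precision.

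Values were used as deposited, in Python 3.11.15 with scipy 1.17.1, pandas 2.3.3 and numpy 2.4.6. Position quintiles and TC number deciles kept equal values together. Intervals are Wilson intervals for shares and, for medians, order statistics at 95%, combined for differences. The functions for bins, differences between outer bins, shares of the summed signal and rank correlations were tested on simulated data. Those for the intervals and the threshold were not. Probes named are all those at 65535 (the upper limit), the 5 brightest below it, the 3 brightest of each quintile, the ends of position and TC number, the 5 nearest above 150, bright runs of consecutive numbers, and probes on which a value rests. The probes and rules were chosen with earlier results of these data known. Alternatives concerned the threshold, limit, saturation, background, bins and holding position or TC number fixed.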

Additional observations from a re-analysis of the deposited data

How the results depend on the processing

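Of 56 alternative values, 26 moved by less than the interval of the value (0.05 for a correlation, 1 percentage point for a share of the summed signal), 27 moved by more and 3 changed sign. The sign changed only for choices made after the values were seen. Without the lowest and highest decile of TC number, the correlation of TC number and intensity was 0.022 and the difference between the outer deciles left -2.04 percentage points, and within the 3 lower position quintiles the correlation of position and intensity was -0.025. The construction shows the reason, as these ranges leave out the bins that carry the relation.

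The share of S probes above the threshold (55.7%) was 64.0% and 48.8% with 1 and 3 standard deviations, 59.4% with the controls named NC, 47.4% with those named Negative and, chosen later, 61.4% without Negative3_776_S. When values up to 10% above 150 counted as at the limit, the share was 22.6% and the difference from the X probes 12.5 points. When all values not above the threshold counted, the share was 44.3%, the difference between position quintiles -9.84, between TC number deciles 17.5 and from the X probes 20.9 points. Leaving out probes at 150 gave a median of 554.6, a position difference of 0.28 and a difference from the X probes of -0.93 (log2), and subtracting 150 gave 0.64 and -1.52. The brightest 1, 5 and 10% held 18.6, 41.1 and 54.2% without the probes at the upper limit and 24.97, 49.9 and 63.7% with 150 subtracted. Deciles of position gave 0.58, and bins of equal width 0.86 and -10.2 points. The difference between TC number deciles was 5.93 points when deciles were formed anew within each position quintile, 9.74 with the deciles of all S probes (added later), and 4.33 between quintiles of TC number. No replicate could be left out, as there was 1 hybridization, which bounds what these values can show.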
